A study of Mus musculus with 6 samples.

Results

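Chemokines are small secreted proteins that draw leukocytes along a gradient, and they are read by chemokine receptors, seven-helix proteins of the cell surface that signal through Gi proteins. In fat, CCL2 and its relatives act through CCR2 on monocytes, which become tissue macrophages, while atypical receptors bind chemokines without Gi signalling and remove or transport them. The genes described here are the 60 symbols of the count table that follow the systematic names of chemokine ligands and receptors (*Ccl*, *Cxcl*, *Cx3cl1*, *Ccr*, *Cxcr*, *Cx3cr1* and *Ackr*), out of 37384 symbols. They comprised 39 ligands, 17 receptors and 4 atypical receptors, chosen by name with no filter on counts.

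RNA was sequenced from floated adipocytes of inguinal scWAT of male mice at P7. L1L2-AKO mice carried floxed *Lats1* and *Lats2* alleles together with Cre driven by the *Adipoq* promoter, which is active in adipocytes, and L1L2-FF littermates carried the same floxed alleles without Cre. Each genotype had 3 libraries, each from a pool of 4 mice, with 30548473 to 32107917 counts. *Lats1* fell by 1.04 on the log2 scale in the L1L2-AKO libraries, but *Lats2* was 0.64 higher, against the label. By RT-qPCR, the paper reported less *Lats1* and *Lats2* mRNA in adipocytes of P7 L1L2-AKO scWAT. The deposited counts are per gene and do not show the floxed part alone. Directions are therefore given for the libraries labelled L1L2-AKO. Floating enriches adipocytes but does not exclude attached cells: all 12 adipocyte markers were detected, with a summed level of 39400 to 57500 CPM (counts scaled to library size, with TMM factors) in L1L2-FF and 34300 to 45300 CPM in L1L2-AKO libraries, and 4 of the 12 were lower. In a bulk sample, more cells of a type and more RNA per cell cannot be told apart.

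Among the 60 genes, 16 were higher and 2 were lower where the label was L1L2-AKO, with an adjusted p under 0.05 (the quasi-likelihood test of edgeR, p-values adjusted by Benjamini-Hochberg over all 15674 genes tested). Of all genes tested, 9.28% were called higher and 7.18% lower. Without L1L2-AKO replicate 1, which was the lowest of its group for many members, 13 were higher and 2 lower. The counts were 10 and 1 without L1L2-FF replicate 1, 16 and 1 without L1L2-FF replicate 2, 12 and 5 without L1L2-FF replicate 3, 10 and 2 without L1L2-AKO replicate 2, and 11 and 2 without L1L2-AKO replicate 3. A further 22 members were tested without a call, and 20 were not tested because their counts were too low. Of the 40 tested members, 18 were higher and 6 were lower without overlap between the groups, against 18.0% and 18.4% of all genes tested. The median log2 fold change of the 40 tested members was 0.92, and that of all genes tested was -0.02. The rise was mostly among CC ligands, of which 9 of 25 were higher and 0 were lower, also by DESeq2 and limma-voom, with 0 lower at an unadjusted p under 0.05. CXC ligands were divided, with 2 of 13 higher and 2 lower.

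The 250 bases before the RefSeq start of 6 ligands that the results below turn on are shown 5′ to 3′ (GRCm38.p6, the assembly of mm10): *Ccl12* (chr11:82101595-82101844, plus strand) and *Ccl8* (chr11:82114935-82115184, plus strand) of the monocyte group, *Ccl9* (chr11:83578637-83578886, minus strand), the neighbours *Cxcl1* (chr5:90890995-90891244, plus strand) and *Cxcl2* (chr5:90903649-90903898, plus strand), whose fitted changes had opposite signs, and *Cxcl10* (chr5:92348890-92349139, minus strand), which fell. Capitals mark matches to 5 motifs, searched on both strands: TEAD (CATTCC), the NF-kB consensus, AP-1 (TGANTCA), ISRE (GAAA, 2 bases of any kind, then GAAA) and GAS (TTCNNNGAA).
Ccl12: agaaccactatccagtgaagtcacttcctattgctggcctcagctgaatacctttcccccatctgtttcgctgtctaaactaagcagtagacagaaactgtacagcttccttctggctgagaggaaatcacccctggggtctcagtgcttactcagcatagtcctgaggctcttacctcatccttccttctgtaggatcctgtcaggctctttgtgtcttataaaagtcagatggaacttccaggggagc
Ccl8: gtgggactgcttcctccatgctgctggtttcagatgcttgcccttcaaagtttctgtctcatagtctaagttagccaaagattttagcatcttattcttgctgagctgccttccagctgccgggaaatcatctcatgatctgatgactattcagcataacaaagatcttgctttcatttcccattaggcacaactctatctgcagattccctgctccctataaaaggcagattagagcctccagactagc
Ccl9: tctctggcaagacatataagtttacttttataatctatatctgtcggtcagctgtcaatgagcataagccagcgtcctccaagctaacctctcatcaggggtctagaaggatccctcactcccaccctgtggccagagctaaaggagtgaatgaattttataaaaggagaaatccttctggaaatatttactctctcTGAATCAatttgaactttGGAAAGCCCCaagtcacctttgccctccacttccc
Cxcl1: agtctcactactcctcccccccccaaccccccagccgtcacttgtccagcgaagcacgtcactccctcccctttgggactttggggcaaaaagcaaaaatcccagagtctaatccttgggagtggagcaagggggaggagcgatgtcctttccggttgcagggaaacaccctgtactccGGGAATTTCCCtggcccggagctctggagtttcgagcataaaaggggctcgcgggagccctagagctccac
Cxcl2: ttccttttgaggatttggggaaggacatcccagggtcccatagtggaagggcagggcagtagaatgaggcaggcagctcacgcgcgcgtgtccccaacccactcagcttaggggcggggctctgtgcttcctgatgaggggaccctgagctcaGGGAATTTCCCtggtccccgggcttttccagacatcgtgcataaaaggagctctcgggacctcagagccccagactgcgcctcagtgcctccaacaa
Cxcl10: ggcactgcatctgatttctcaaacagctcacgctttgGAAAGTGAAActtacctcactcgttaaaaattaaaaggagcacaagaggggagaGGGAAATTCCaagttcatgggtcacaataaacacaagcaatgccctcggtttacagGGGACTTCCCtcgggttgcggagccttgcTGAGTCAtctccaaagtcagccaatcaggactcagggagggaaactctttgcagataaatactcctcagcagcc

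The windows of *Cxcl1* and *Cxcl2* both held the run GGGAATTTCCC, which matches the NF-kB consensus on either strand with 1 base of offset, starting 71 bases before the start in *Cxcl1* and 97 bases in *Cxcl2*. *Cxcl10* held a pair of NF-kB matches, at 159 to 150 and 103 to 94 bases before the start, an AP-1 match at 74 to 68 bases and an ISRE match at 213 to 204 bases. *Ccl9* had an NF-kB match at 35 to 26 bases and an AP-1 match at 53 to 47 bases, and *Ccl8* and *Ccl12* had none of the 5. Of the called members, 11 of the 16 higher and both lower genes had a window in the RefSeq table, and 16 of the 60 members, *Ccl2*, *Ccl7* and *Ccl11* among them, did not. TEAD matches were found in 0 of these 11 and 0 of the 2 lower windows, and in 12.6% of 32851 windows of the same length. NF-kB matches were in 2 of the 11 (*Ccl9* and *Cxcl2*) and 1 of the 2, and in 3.90% of all windows. AP-1 matches were in 1 of the 11 and 1 of the 2 (6.75% of all windows), ISRE in 0 and 1 (2.98%), and GAS in 0 and 0 (7.02%). Letters in a window are a description and say nothing of whether a factor was bound.

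*Ccl2*, *Ccl7*, *Ccl8*, *Ccl12* and the receptor *Ccr2*, grouped here as the monocyte axis, all rose. *Ccl2* (ENSMUSG00000035385.5, chromosome 11 from 82035571 to 82037453), the main attractant of monocytes, measured 29.3, 23.1 and 15.5 CPM in the L1L2-FF libraries and 69.2, 109 and 124 CPM in libraries labelled L1L2-AKO. Every labelled L1L2-AKO library exceeded every L1L2-FF library, with a log2 fold change of 2.15 ± 0.282 (SE, edgeR adjusted p = 0.00229). *Ccl7*, a second CCR2 ligand encoded 10.1 kb further along, was at 9.86, 8.16 and 5.51 CPM in L1L2-FF and at 60.2, 137 and 127 CPM in libraries labelled L1L2-AKO. That was a 13.8-fold rise (log2 3.78 ± 0.355, edgeR adjusted p = 0.000661), with replicate 1 the lowest of its group. Within each library, the count of *Ccl7* relative to *Ccl2* was 0.336, 0.354 and 0.356 in L1L2-FF and 0.870, 1.26 and 1.02 in libraries labelled L1L2-AKO. The ratios did not overlap, and the exact permutation test gave p = 0.1, the smallest that 3 against 3 libraries allow (0.2 after adjustment over 8 ratios).

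*Ccl12*, the rodent CCR2 ligand also called MCP-5, measured 1.09, 1.14 and 0.870 CPM in L1L2-FF and 5.79, 12.2 and 6.81 CPM in libraries labelled L1L2-AKO (log2 2.99 ± 0.337, edgeR adjusted p = 0.00131). Its promoter window is the first sequence printed above. *Ccl8*, a relative that in mice signals through CCR8, had only 6, 6 and 9 counts in L1L2-FF against 58, 154 and 177 counts, so its log2 fold change of 4.24 ± 0.551 (edgeR adjusted p = 0.00227), the highest among the members, rests on a low base. Its receptor *Ccr8* had 0 to 6 counts in any library and was not tested. *Ccr2*, the shared receptor of CCL2, CCL7 and CCL12, was at 2.39, 7.24 and 3.51 CPM in L1L2-FF and 10.5, 13.4 and 14.9 CPM in libraries labelled L1L2-AKO. The groups did not overlap (log2 1.56 ± 0.377, edgeR adjusted p = 0.0273), but the call was lost without L1L2-FF replicate 1 or 3 or L1L2-AKO replicate 2 or 3, with an adjusted p of up to 0.0908. The calls of *Ccl2*, *Ccl7*, *Ccl8* and *Ccl12* held without any 1 of the 6 libraries.

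**Figure D1:**
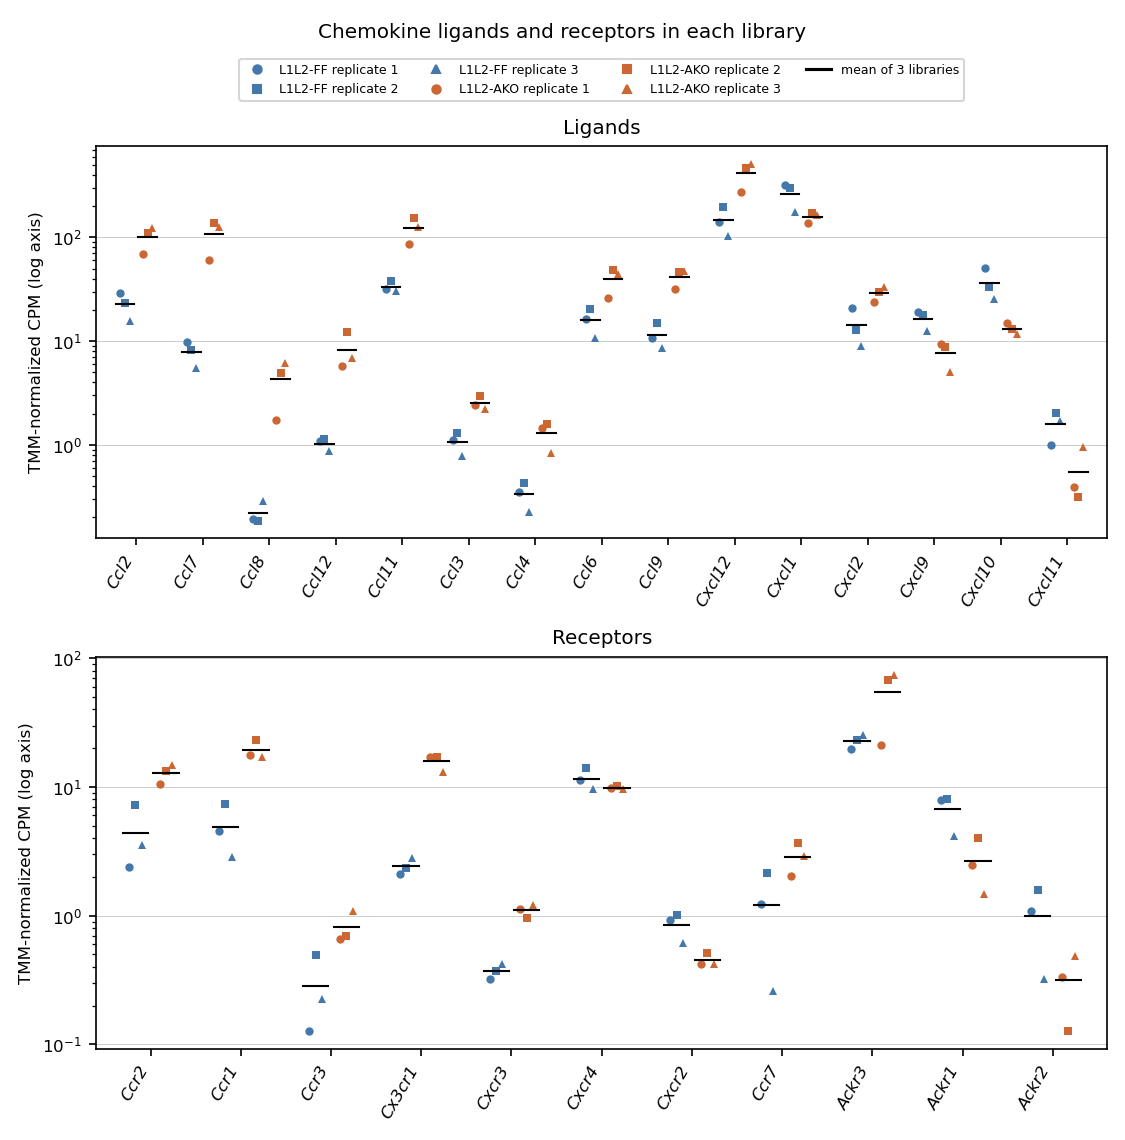
TMM-normalized CPM (log axis) of 15 ligands and 11 receptors in each of the 6 libraries, with blue symbols for L1L2-FF, orange symbols for the libraries labelled L1L2-AKO, 1 symbol shape for each replicate and a black line at the mean of 3 libraries. *Ccl7* sits at 5.51 to 9.86 CPM in L1L2-FF and 60.2 to 137 CPM in L1L2-AKO, while *Cxcl10* is lower in all 3 L1L2-AKO libraries and *Ackr3* is high in only 2 of them.

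The second group that rose held *Ccr1* and inflammatory CC ligands, which attract monocytes, macrophages and T cells, where 5 of 6 genes were higher. *Ccr1*, a receptor of macrophages and neutrophils, was at 4.53, 7.39 and 2.84 CPM in L1L2-FF and 17.6, 23.1 and 17.2 CPM in libraries labelled L1L2-AKO (log2 1.97 ± 0.325, edgeR adjusted p = 0.00591). The groups did not overlap, and the call held without any 1 library.

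Among the ligands, *Ccl9* and *Ccl6* were the more abundant, both rodent CCR1 ligands. *Ccl9* measured 10.7, 15.1 and 8.64 CPM in L1L2-FF and 32.1, 45.9 and 47.0 CPM in libraries labelled L1L2-AKO (log2 1.86 ± 0.236, edgeR adjusted p = 0.00209). *Ccl6* was at 16.5, 20.5 and 10.8 CPM against 26.1, 48.1 and 44.3 CPM, with no overlap (log2 1.31 ± 0.287, edgeR adjusted p = 0.0188). *Ccl3* and *Ccl4*, the macrophage inflammatory proteins, were scarcer, with log2 fold changes of 1.25 (24 to 42 against 64 to 93 counts, edgeR adjusted p = 0.0253) and 1.93 (7 to 14 against 24 to 50 counts, edgeR adjusted p = 0.0181). *Ccl5*, a T cell product, had overlapping groups of 0.322 to 1.11 and 1.06 to 1.64 CPM (log2 0.82 ± 0.459, edgeR adjusted p = 0.276). The call of *Ccl9* held without any 1 library. That of *Ccl6* was lost without L1L2-FF replicate 1 or L1L2-AKO replicate 2 or 3 (adjusted p up to 0.0749), that of *Ccl4* without L1L2-FF replicate 1 or 3 or L1L2-AKO replicate 1 or 2 (up to 0.0833), and that of *Ccl3* without any library other than L1L2-FF replicate 2 (up to 0.106).

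*Cx3cr1*, the receptor of resident macrophages and patrolling monocytes for fractalkine, had the smallest adjusted p of the members. It measured 2.11, 2.35 and 2.80 CPM in L1L2-FF and 17.2, 17.1 and 13.1 CPM in libraries labelled L1L2-AKO, a 6.52-fold rise (log2 2.71 ± 0.199, edgeR adjusted p = 0.000316) that held without any 1 library. Its ligand *Cx3cl1* lay at 4.42 to 7.11 CPM and 3.67 to 7.21 CPM, ranges that overlapped (log2 -0.04 ± 0.291, edgeR adjusted p = 0.950). *Cxcl16*, the other membrane-anchored chemokine, was 0.71 ± 0.285 higher on the log2 scale with an edgeR adjusted p of 0.132, and its receptor *Cxcr6* had 7 to 24 counts over the 6 libraries. Exons of *Zmynd15* overlap *Cxcl16* on the opposite strand, and without strand the reads of the 2 genes cannot be told apart.

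**Figure D2:**
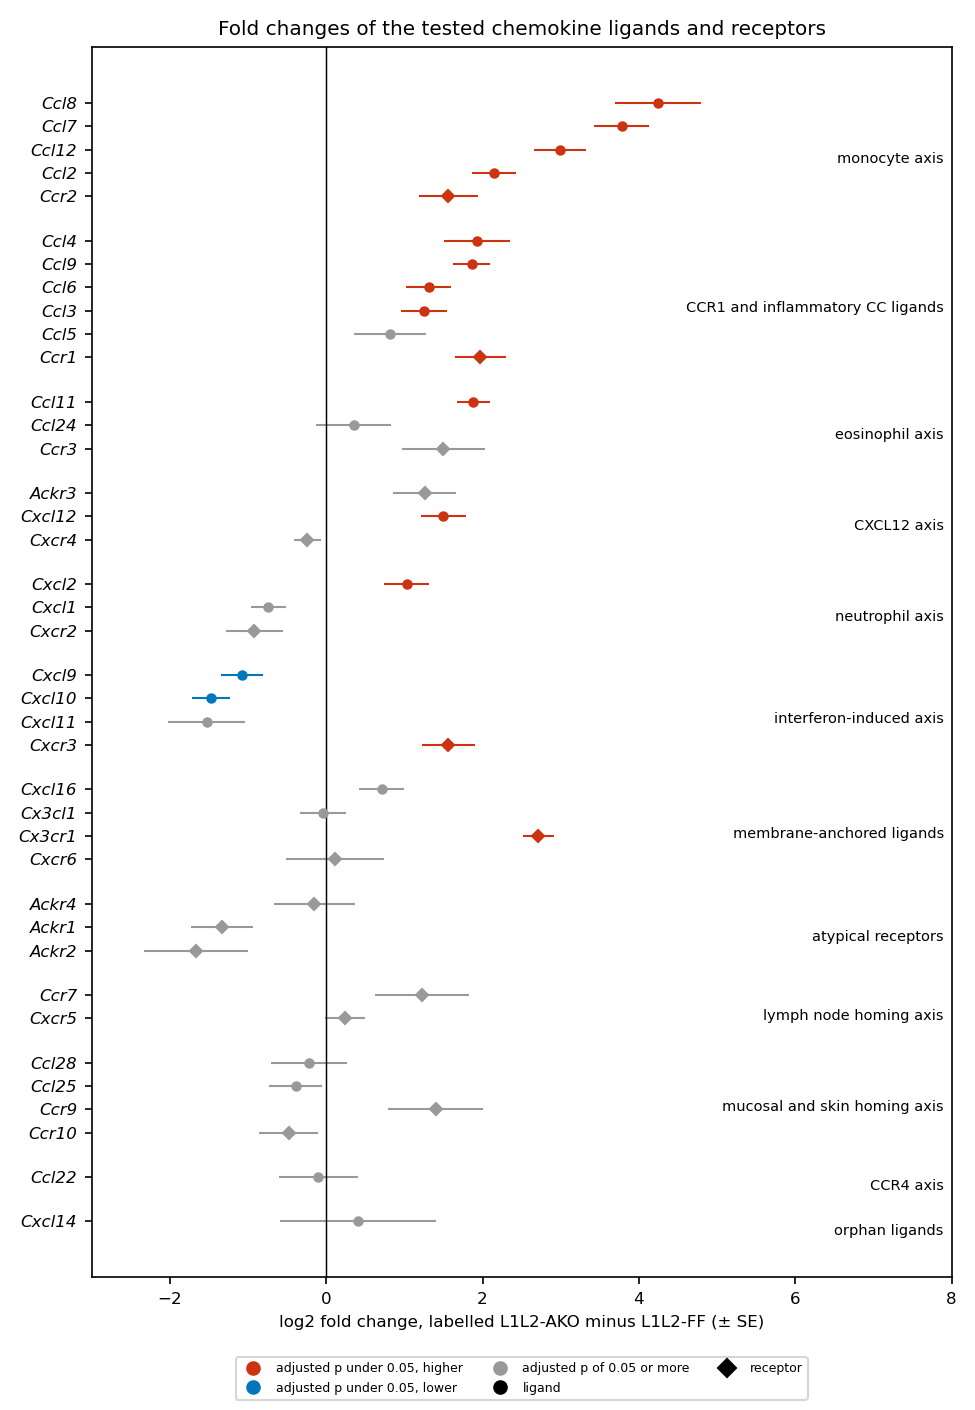
Log2 fold changes (libraries labelled L1L2-AKO minus L1L2-FF, ± SE from edgeR) of 39 of the tested members, grouped by ligand and receptor axis, with red for an adjusted p under 0.05 and higher, blue for lower and grey for no call, and circles for ligands and diamonds for receptors. All 5 genes of the monocyte axis and 5 of 6 of the group of *Ccr1* and inflammatory CC ligands are red, and the blue points are *Cxcl9* and *Cxcl10*.

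*Ccl11*, eotaxin, which attracts eosinophils through CCR3 and is made by stromal cells, was at 31.7, 37.9 and 30.3 CPM in L1L2-FF and at 86.9, 154 and 127 CPM in libraries labelled L1L2-AKO. The groups were well apart (log2 1.88 ± 0.212, edgeR adjusted p = 0.00131), and the call held without any 1 library. *Ccl24*, the second eotaxin measured, overlapped between groups at 2.48 to 5.26 and 2.34 to 8.54 CPM, and L1L2-AKO replicate 1 was the highest (log2 0.35 ± 0.475, edgeR adjusted p = 0.680, and -0.33 without that library). *Ccr3* had 4, 16 and 7 counts against 22, 22 and 31 counts, which did not overlap but missed the threshold (log2 1.50 ± 0.528, edgeR adjusted p = 0.0924). The eosinophil markers *Epx*, *Prg2* and *Siglecf* were too low to test, the highest value being 0.835 CPM.

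*Cxcl12*, which retains leukocytes and progenitors through CXCR4, rose 2.84-fold. Its level was 142, 195 and 102 CPM in L1L2-FF and 274, 466 and 507 CPM in libraries labelled L1L2-AKO (log2 1.50 ± 0.293, edgeR adjusted p = 0.0118), with an adjusted p of 0.0557 without L1L2-FF replicate 1. Its signalling receptor *Cxcr4* was at 9.60 to 14 CPM in L1L2-FF and 9.57 to 10.1 CPM in libraries labelled L1L2-AKO, with an edgeR adjusted p of 0.395 (log2 -0.24 ± 0.173). *Ackr3*, the atypical receptor that scavenges CXCL12, differed among the libraries labelled L1L2-AKO themselves, with 21.2 CPM in replicate 1 and 67.5 and 74.7 CPM in replicates 2 and 3, against 19.8, 23.1 and 25.4 CPM in L1L2-FF. Replicate 1 lay within the L1L2-FF range, and the log2 fold change of 1.26 ± 0.403 had an edgeR adjusted p of 0.0701. Without that library it was 1.64 and past the threshold.

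The neutrophil attractants *Cxcl1* and *Cxcl2*, which both act through CXCR2 and lie 12.6 kb apart on chromosome 5, had fitted changes of opposite sign. *Cxcl2* rose from 20.8, 12.8 and 8.90 CPM in L1L2-FF to 24.0, 29.7 and 33.4 CPM in libraries labelled L1L2-AKO (log2 1.03 ± 0.291, edgeR adjusted p = 0.0467). This call was lost without any library other than L1L2-FF replicate 1 (adjusted p up to 0.143) and with upper-quartile scaling. *Cxcl1* was at 317, 300 and 174 CPM in L1L2-FF and 139, 172 and 165 CPM in libraries labelled L1L2-AKO, which did not overlap but did not pass (log2 -0.74 ± 0.225, edgeR adjusted p = 0.0601). The count of *Cxcl2* relative to *Cxcl1* within a library was 0.0531 ± 0.0118 (SD, n = 3) in L1L2-FF and 0.183 ± 0.0174 (SD, n = 3) in libraries labelled L1L2-AKO, without overlap (exact permutation p = 0.1, the smallest possible). These were the neighbours whose promoter windows shared the run GGGAATTTCCC. *Cxcr2* had 29, 33 and 19 counts against 14, 16 and 12 counts (log2 -0.92 ± 0.366, edgeR adjusted p = 0.131). Of 8 neutrophil markers tested, 0 were called by edgeR or limma-voom and 1 was lower by DESeq2 and at an unadjusted p under 0.05. Their list summed to 18.6 to 37.2 CPM in L1L2-FF and 16.0 to 25.4 CPM in libraries labelled L1L2-AKO.

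Of the 3 interferon-induced ligands of CXCR3, which attract activated T cells and NK cells, 2 fell. *Cxcl10* was at 51.0, 33.4 and 25.6 CPM in L1L2-FF and 14.8, 13 and 11.8 CPM in libraries labelled L1L2-AKO, a log2 change of -1.47 ± 0.245 (edgeR adjusted p = 0.00611) that held without any 1 library. *Cxcl10* overlaps exons of *Art3* on the opposite strand, and the strand setting of the counting is not given in the sources used here. *Cxcl9* fell from 19.1, 17.7 and 12.5 CPM to 9.41, 8.82 and 5.03 CPM (log2 -1.08 ± 0.266, edgeR adjusted p = 0.0295), a call lost without L1L2-FF replicate 1 or 2 or L1L2-AKO replicate 2 or 3 (adjusted p up to 0.115). *Cxcl11* had 31, 66 and 53 counts against 13, 10 and 27 counts (log2 -1.53 ± 0.494, edgeR adjusted p = 0.0721), which did not overlap. In contrast to its ligands, *Cxcr3* rose from 10, 12 and 13 counts to 37, 30 and 35 counts (log2 1.56 ± 0.339, edgeR adjusted p = 0.0182), a call lost without L1L2-FF replicate 1 or any labelled L1L2-AKO library (adjusted p up to 0.0840). All 10 T cell markers tested had an adjusted p of 0.05 or more by edgeR and limma-voom, 4 were higher at an unadjusted p under 0.05 and 2 by DESeq2, with a summed level of 7.61 to 25.5 CPM in L1L2-FF and 17.1 to 38.2 CPM in libraries labelled L1L2-AKO. The part of T cells in the *Cxcr3* result was not tested.

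Among the other atypical receptors, 0 of the 3 tested were called by edgeR or limma-voom, while 2 were lower at an unadjusted p under 0.05 and 1 by DESeq2. *Ackr1*, a chemokine transporter of venular endothelium and red cells, was at 7.85, 8.13 and 4.16 CPM in L1L2-FF and 2.47, 4.03 and 1.47 CPM in libraries labelled L1L2-AKO. The groups did not overlap (log2 -1.33 ± 0.399, edgeR adjusted p = 0.0564), and the value is uncertain because 20.4% of the 50-base stretches of *Ackr1* also occur in the overlapping gene *Cadm3*. The endothelial list held 1 lower gene of 10 and summed to 2040 to 2740 CPM in L1L2-FF and 1190 to 2560 CPM in libraries labelled L1L2-AKO, and its part was not tested. *Ackr2*, a scavenger of inflammatory CC ligands, had 34, 51 and 10 counts against 11, 4 and 14 counts, which overlapped (log2 -1.66 ± 0.666, edgeR adjusted p = 0.134).

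Receptors and ligands of lymphocyte homing were low and had no call. *Ccr7*, which brings dendritic cells and naive T cells to lymph nodes, overlapped at 0.258 to 2.13 and 2.02 to 3.65 CPM (log2 1.23 ± 0.600, edgeR adjusted p = 0.211). Its ligands *Ccl19* and *Ccl21a* had at most 4 counts in any library, and sequence shared with near-identical copies makes both uncertain. Altogether 11 members stayed at 3 counts or fewer in all 6 libraries (*Ccl1*, *Ccl17*, *Ccl19*, *Ccl21b*, *Ccl21c*, *Ccl21d*, *Ccl26*, *Ccl27a*, *Cxcl5*, *Cxcl15* and *Cxcr1*), and 7 of these had 0 counts throughout. A count of 0 still allows up to 3 counts in a library. The counts of *Ccl19*, *Ccl21b* and *Ccl27a* are uncertain at any depth, since 52.0%, 100% and 45.0% of the 50-base stretches of their transcripts also occur in other genes, and *Ccl21c* and *Ccl21d* were not matched to the annotation, so their shared sequence was not measured. The 9 others that were not tested (*Ccl20*, *Ccl21a*, *Ccl27b*, *Ccr4*, *Ccr6*, *Ccr8*, *Cxcl3*, *Cxcl13* and *Cxcl17*) had at most 15 counts in any library. The 6 remaining tested members, *Ccl22*, *Ccl25*, *Ccl28*, *Ccr10*, *Cxcl14* and *Cxcr5*, overlapped between groups with log2 fold changes from -0.48 to 0.41, *Ccr9* overlapped at 1.40 ± 0.608, and *Ackr4* overlapped at -0.15 ± 0.517.

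Scaled by exon length, the ligand pool changed its make-up. The summed level of the 37 ligands with a GENCODE length was 318, 310 and 192 CPM per kilobase in L1L2-FF and 402, 672 and 636 CPM per kilobase in libraries labelled L1L2-AKO, without overlap. In L1L2-FF, *Cxcl1* led with 141 ± 41.6 CPM per kilobase (SD, n = 3), ahead of *Ccl11* at 30.7 ± 3.75, *Ccl2* at 19.9 ± 6.09, *Cxcl12* at 17.9 ± 5.66 and *Cxcl10* at 16.3 ± 5.78. The last 3 lay within each other's spread. *Ccl7* stood at 9.80 ± 2.74 CPM per kilobase in L1L2-FF but at 135 ± 52.1 in libraries labelled L1L2-AKO, followed there by *Ccl11* at 114 ± 31.4, *Ccl2* at 88.5 ± 25.0, *Cxcl1* at 84.5 ± 9.35 and *Cxcl12* at 50.8 ± 15.2. Neighbours among the first 4 of these did not differ beyond their spread. The order and the shares below depend on the merged exon length, 8176 bases for *Cxcl12* and 801 for *Ccl7*. Without length scaling, *Cxcl12* was the highest ligand in each library labelled L1L2-AKO, at 274, 466 and 507 CPM. *Ccl7* was at 60.2, 137 and 127 CPM there. *Cxcl1* was the highest in each L1L2-FF library either way. Shares without length scaling were not computed. As a share of the pool, *Cxcl1* went from 51.1% ± 2.43 to 15.3% ± 2.70 (SD, n = 3), and *Ccl2*, *Ccl7*, *Ccl8* and *Ccl12* together from 11.7% ± 1.06 to 42.6% ± 4.59. *Cxcl9*, *Cxcl10* and *Cxcl11* together made up 8.12% ± 1.18 in L1L2-FF and 1.62% ± 0.707 in libraries labelled L1L2-AKO.

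Receptor transcripts were scarcer, at 20.5 to 29.3 CPM per kilobase in sum in L1L2-FF and 29.6 to 49.0 in libraries labelled L1L2-AKO. *Ackr3* (28.5% ± 7.49, SD, n = 3), *Cxcr4* (26.2% ± 0.195) and *Ackr1* (19.2% ± 4.54) made up most of the L1L2-FF sum, and the first pair did not differ beyond their spread. In the libraries labelled L1L2-AKO the shares were 37.0% ± 14.1 for *Ackr3*, 16.9% ± 3.88 for *Ccr1*, 13.7% ± 3.89 for *Cxcr4* and 8.99% ± 3.47 for *Cx3cr1*. *Cxcr4* thus took a smaller share of the sum while its own level overlapped between groups.

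**Figure D3:**
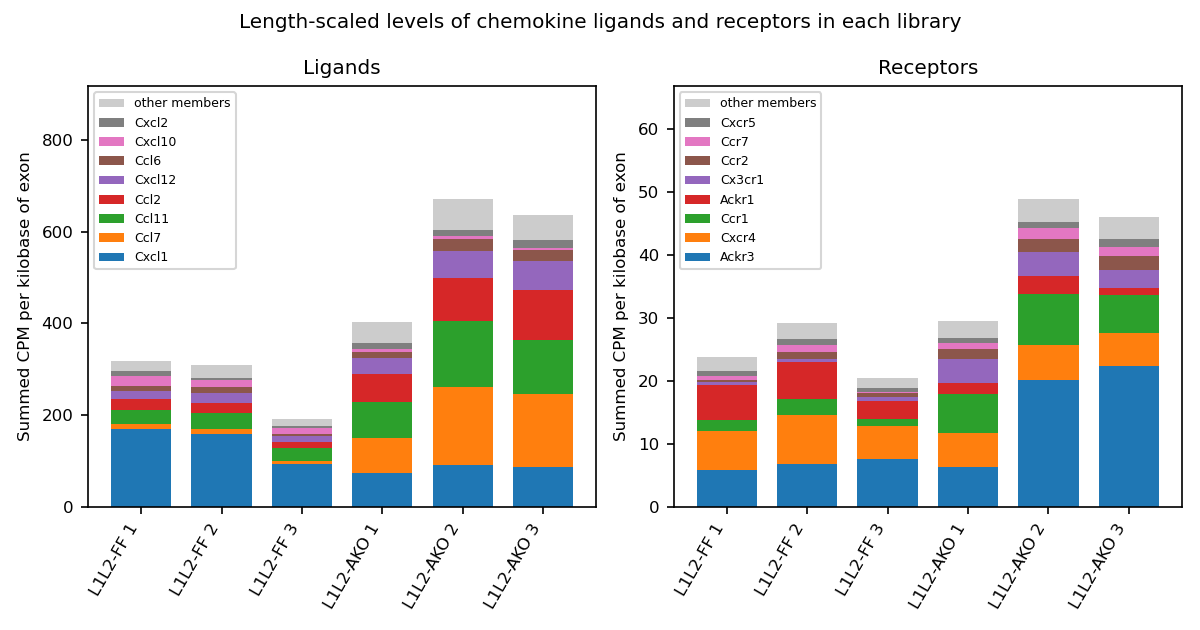
Summed CPM per kilobase of exon in each of the 6 libraries for ligands (left) and receptors, atypical ones included (right), with the 8 most abundant genes of each stacked in colour and the others in grey. *Cxcl1* fills 48.4% to 53.1% of the ligand bars of L1L2-FF and 13.6% to 18.4% of those labelled L1L2-AKO, and *Ackr3* is tall in only 2 of the labelled L1L2-AKO bars.

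Chemokine genes lie in clusters, and neighbours often went the same way. On chromosome 11, *Ccl2*, *Ccl7*, *Ccl11*, *Ccl12* and *Ccl8* span starts 79.6 kb apart and all 5 rose, whereas *Ccl1* at the end of this cluster had 0 counts. In the second CC cluster of the chromosome, *Ccl9*, *Ccl6*, *Ccl3* and *Ccl4* rose and *Ccl5* had no call. *Cxcl9*, *Cxcl10* and *Cxcl11* on chromosome 5 all had lower values, 2 of them past the threshold. On chromosome 9, *Ccr1* and *Ccr2* rose, and *Ccr9*, *Cxcr6* and *Ccr3* between and beside them had no call. Neighbouring genes are not independent replicates.

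**Figure D4:**
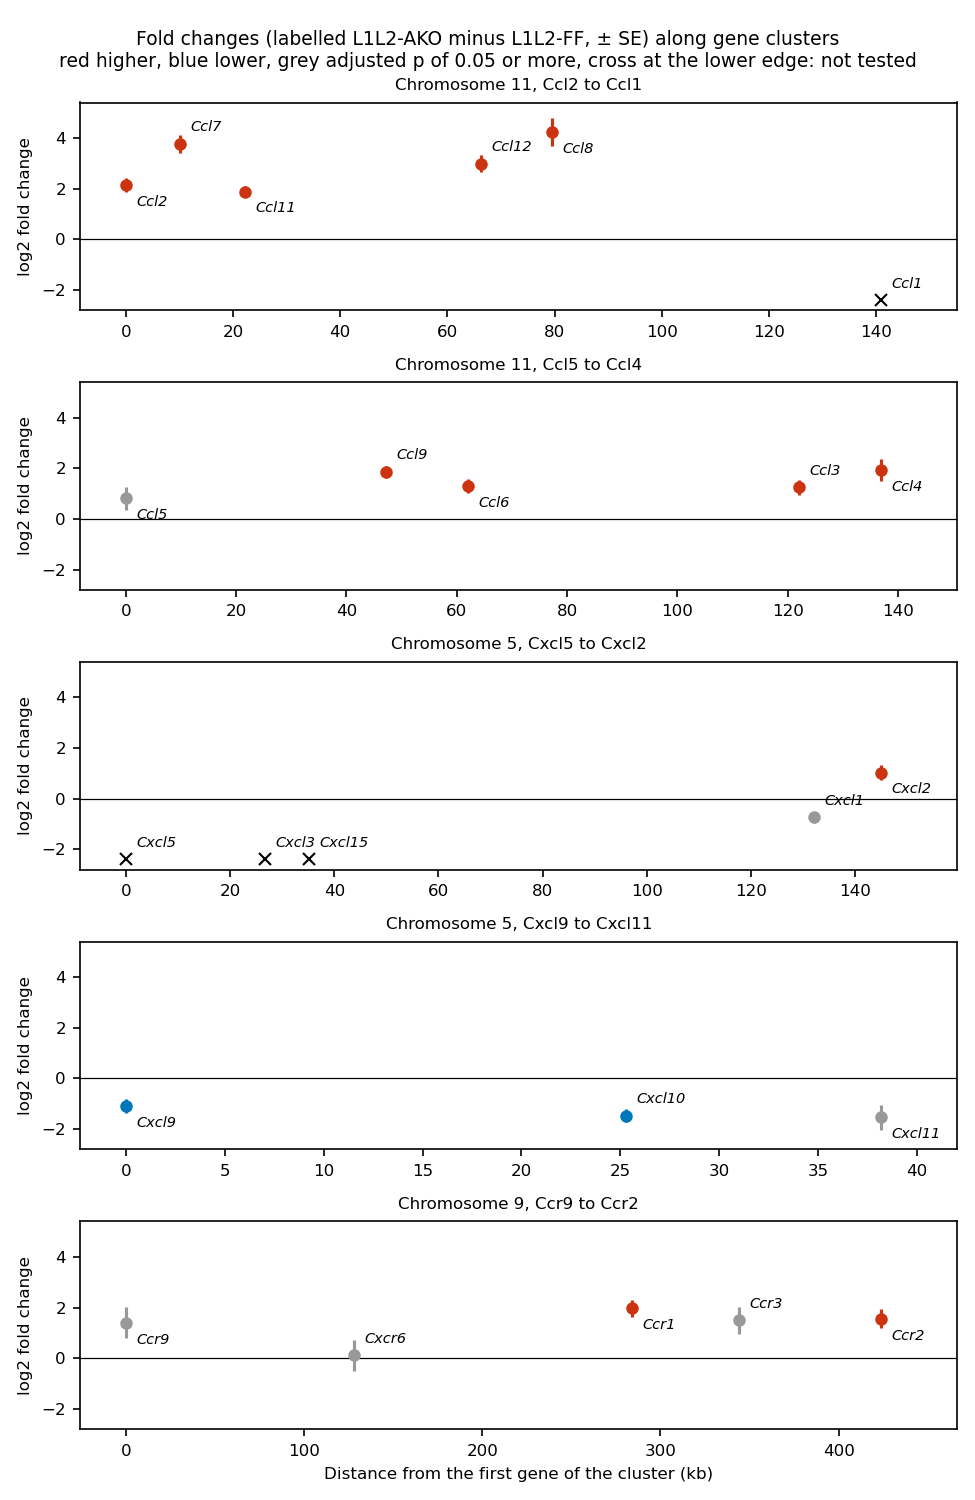
Log2 fold changes (libraries labelled L1L2-AKO minus L1L2-FF, ± SE) of members in 5 gene clusters against the distance in kb from the first gene of each cluster, with red for higher, blue for lower, grey for no call and crosses at the lower edge for genes that were not tested. The 5 expressed genes from *Ccl2* to *Ccl8* lie between 1.88 and 4.24, and the neighbours *Cxcl1* and *Cxcl2* lie at -0.74 and 1.03.

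Macrophage markers rose beside these genes. Of 12 markers, 11 were higher and 1 had no call, with a median log2 fold change of 1.51 and a summed level of 270 to 526 CPM in L1L2-FF and 975 to 1090 CPM in libraries labelled L1L2-AKO. *Adgre1* (F4/80) was at 14.9, 21.1 and 11.8 CPM against 56.6, 47.6 and 45.9 CPM, and none of the 12 was at 0. The macrophage-expressed receptors *Cx3cr1*, *Ccr1* and *Ccr2* and the ligands *Ccl3*, *Ccl4*, *Ccl6* and *Ccl9* moved with this list, and its part in their rise was not tested. Of 8 monocyte markers tested, 2 were higher, *F13a1* and *Ms4a4c*, with *Fcnb* at 0. The list summed to 954 to 1210 CPM in L1L2-FF and 980 to 7200 CPM in libraries labelled L1L2-AKO, most of it *Hp*, which adipocytes also express and which was at 659, 5290 and 6920 CPM in the latter. Progenitor and fibroblast markers, a class of cells that makes *Ccl2*, *Ccl7*, *Ccl11* and *Cxcl12*, had 3 lower and 0 higher of 9. By DESeq2, limma-voom and at an unadjusted p under 0.05, 0 were higher as well, and 6 had no call by edgeR. Their sums were 1270 to 1670 and 766 to 869 CPM, a large part of it *Dpt*, at 971, 531 and 1050 against 292, 206 and 272 CPM. In the paper, F4/80-positive cells of L1L2-AKO scWAT expressed more *Ccl2* and *Ccl7* than F4/80-negative cells. The paper also reported more *Ccl2* mRNA in adipocytes of P7 L1L2-AKO scWAT than in those of L1L2-FF. The part of macrophages, progenitors and fibroblasts, or adipocytes in the rise of these ligands was not tested.

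Genes that act with chemokines were followed as 4 lists, beside 16.5% of all genes tested called in either direction. Of 33 genes of chemokine receptor signalling, 14 were higher and 2 lower (median log2 fold change 0.32). The 3 most abundant of the higher ones were *Rap1b*, a GTPase of integrin activation (a mean of 186 against 361 CPM, log2 0.95 ± 0.111, edgeR adjusted p = 0.00145), *Lyn*, a Src family kinase (0.49 ± 0.129), and *Rgs16*, which shortens G protein signals (1.28 ± 0.352). The lower ones were *Gng2*, a G protein subunit (-0.69 ± 0.144), and *Grk3*, a receptor kinase (-1.05 ± 0.234). Leukocyte-restricted members, named here after their values were seen, were among those that rose, such as *Rac2* (1.37 ± 0.211), *Dock2* (1.37 ± 0.293) and *Vav1* (1.81 ± 0.356), beside the rise of macrophage markers given above. With library size alone or upper-quartile factors 11 of the list were higher, and *Lyn* (edgeR adjusted p = 0.0824 and 0.0541) and *Rgs16* (edgeR adjusted p = 0.0537 and 0.0520) lost their call. The count also fell to 6 without L1L2-FF replicate 1 and to 4 without L1L2-AKO replicate 2. *Lyn* kept its call only without L1L2-AKO replicate 3 (edgeR adjusted p up to 0.145 otherwise), and *Rgs16* only without L1L2-FF replicate 2 or L1L2-AKO replicate 1 (up to 0.141 otherwise). Those of *Gng2* and *Dock2* were lost without L1L2-FF replicate 1 or L1L2-AKO replicate 2 or 3 (up to 0.0709 and 0.0761), that of *Grk3* without L1L2-AKO replicate 2 or 3 (up to 0.0826), and that of *Vav1* without L1L2-FF replicate 1 or L1L2-AKO replicate 2 (up to 0.0587).

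Inducers of chemokine transcription were divided, with 2 of 24 higher and 4 lower by edgeR (median log2 fold change 0.17). DESeq2's Wald test and an unadjusted p under 0.05 each gave 6 higher and 5 lower, and limma-voom gave 2 and 4. The AP-1 subunits *Fos* (1380, 1560 and 1050 against 657, 681 and 691 CPM, log2 -0.97 ± 0.180, edgeR adjusted p = 0.00947) and *Jun* (-1.02 ± 0.169), the NF-kB cofactor *Nfkbiz* (-1.34 ± 0.251) and *Irf1* (-1.61 ± 0.261), a transcription factor of the interferon response, were lower. *Irf1* fell from 219, 282 and 139 CPM to 78.2, 76.7 and 54.9 CPM, in the same libraries in which *Cxcl9* and *Cxcl10* were lower. The genes that rose were *Il6* (5.94, 4.82 and 3.45 against 12.8, 44.9 and 46.8 CPM, log2 2.88 ± 0.475, edgeR adjusted p = 0.00593) and *Il1r1*, the IL-1 receptor (1.41 ± 0.291, edgeR adjusted p = 0.0147), whose call was lost without L1L2-FF replicate 1 or L1L2-AKO replicate 2 or 3 (up to 0.0560). In both, replicate 1 was the lowest of its labelled L1L2-AKO group, as it was for *Ccl2*, *Ccl7*, *Ccl8*, *Ccl11*, *Cxcl12* and *Ackr3*.

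Of 15 genes that cleave chemokines or hold them at the cell surface, 4 were higher and 0 lower by edgeR, with 0 lower by limma-voom and 1 lower by DESeq2 and at an unadjusted p under 0.05 (median log2 fold change 0.13). They were *Mmp14*, a membrane protease that cleaves chemokines (log2 0.73 ± 0.165, edgeR adjusted p = 0.0214), and the heparan sulphate enzymes *Ext1* (0.47 ± 0.111), *Ndst1* (0.59 ± 0.134) and *Hs6st1* (0.78 ± 0.216). None of the 4 kept its call without L1L2-AKO replicate 2 or 3 (edgeR adjusted p from 0.0593 for *Ndst1* to 0.157 for *Hs6st1*), and the 3 enzymes also lost theirs without L1L2-FF replicate 1 (0.117, 0.0900 and 0.134). *Hs6st1* was lost as well without L1L2-FF replicate 3 (0.106), with upper-quartile factors (0.0539) and by limma-voom (0.0660). Of 10 chemokine-like genes outside the naming rule, 2 were higher, *Pf4*, platelet factor 4 (0.85 ± 0.223), and *Gpr35*, a receptor proposed to bind CXCL17 (1.43 ± 0.310), and 1 was lower (median log2 fold change 0.27). That was *Cmklr1*, the receptor of the adipokine chemerin, at 50.4, 61.0 and 52.1 CPM in L1L2-FF and 19.6, 13.7 and 14.7 CPM in libraries labelled L1L2-AKO (-1.77 ± 0.164, edgeR adjusted p = 0.000661), and its call held without any 1 library. Both *Pf4* and *Gpr35* lost their call without L1L2-FF replicate 1 or L1L2-AKO replicate 2 or 3 (edgeR adjusted p up to 0.132 and 0.0711), and *Pf4* also without L1L2-FF replicate 3 (0.0790) and with library size alone (0.0599).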

How the data were processed

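RNA from floated adipocytes of inguinal scWAT was measured in 6 libraries, 3 per genotype, grouped by the submitters' labels. The authors sequenced poly(A)-selected RNA as paired ends, aligned the reads to mm10 with HISAT2 2.1.0 and analysed them with StringTie 1.3.5, and deposited raw counts per gene symbol, without normalization. The annotation, counting program and strand setting are not given in the sources used here. Total counts were 30548473 to 32107917 per library. Floors cover counting error only, whereas the SE and SD values include the spread between libraries.

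The deposited counts were tested across all genes with edgeR 4.0.16 in R 4.3.3: filterByExpr by genotype (15674 of 37384 symbols kept), TMM scaling, a quasi-likelihood fit of genotype without covariates and a two-sided test with Benjamini-Hochberg adjustment at 0.05. CPM values are TMM-normalized. Levels per kilobase used the merged exon length of GENCODE M21, matched by symbol, which lacked 2 members. Promoter windows came from a RefSeq table (GRCm38.p6) holding 44 of the 60 members. Ratios were compared with exact two-sided permutation tests.

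Members were chosen by symbol. Some genes are counted in the totals but not reported here by name. Of the rest, the text names each member past the threshold, *Ccl2*, *Ccl7* and *Ccr2*, the 6 most abundant ligands and 6 most abundant receptors per kilobase, their partners in the same axis and, of each other chemokine list, up to 3 members past the threshold with the highest level. Axes were assigned from general knowledge. The members, lists, axes and tests were chosen with earlier results of these data known. Others named were chosen after their values were seen, as was the *Ccl8* to *Ccl2* ratio, which is among the 8. Of the 20 lists, 16 were cell type markers.

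In simulated counts with 200 changed genes out of 15711 tested for this comparison, edgeR recovered 73.7% of 2-fold and 98.0% of 4-fold changes, with 10 false calls among 179. Every gene was simulated with the same spread between replicate libraries, so recovery for members that vary more was not measured. The alternatives were DESeq2 1.42.0, limma-voom (limma 3.58.1), other scalings and filters, edgeR's robust setting, the replicate number as a block, and leaving out each library.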

Additional observations from a re-analysis of the deposited data

How the results depend on the processing

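Each count of calls was recomputed under 16 alternatives, 6 of which left out 1 library. The 16 members called higher and 2 called lower were 16 and 2 with DESeq2 size factors, library size alone, limma-voom, edgeR's robust setting and a mean of at least 10 counts, all with the same genes. Upper-quartile factors gave 15 and 2 (without *Cxcl2*), and at least 10 counts in every library gave 14 and 2, since *Ccl4* and *Ccl8* were then not tested. DESeq2's Wald test gave 17 higher and 5 lower, adding *Ackr3*, *Ackr1*, *Cxcl1* and *Cxcl11*, and no filter on low counts gave 17 and 4; the cause was not tested. Leaving out 1 library gave 10 to 16 higher members and 1 to 5 lower ones, and 1281 to 2845 calls over all genes against 2580, with fewer samples in each fit. *Ccl2*, *Ccl7*, *Ccl8*, *Ccl9*, *Ccl11*, *Ccl12*, *Ccr1*, *Cx3cr1* and *Cxcl10* kept their call without any 1 library. The sign turned for *Cx3cl1* (-0.25 to 0.20 over these fits, above 0 without L1L2-FF replicate 2, at 0.13, or L1L2-AKO replicate 3) and *Ccl24* (-0.33 to 0.69, below 0 without L1L2-AKO replicate 1), neither of which had a call. With the replicate number as a block, 15 members were higher (without *Cxcl2*, edgeR adjusted p = 0.0614) and 3 lower (with *Ackr1*, edgeR adjusted p = 0.0112). Deviations of same-numbered libraries correlated at 0.204, 0.296 and -0.0524, and those of differently numbered libraries at -0.342 to 0.238. With 3 libraries per group these values cannot settle whether the numbers pair the libraries. No scaling moved the median of all genes by over 0.1 on the log2 scale. Members under about 10 counts are limited by depth.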

Other observations

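Within a library, the count of *Ccl8* relative to *Ccl2* was 0.00653, 0.00804 and 0.0187 in L1L2-FF and 0.0253, 0.0449 and 0.0497 in libraries labelled L1L2-AKO (exact permutation p = 0.1, the smallest that 3 against 3 libraries allow, and 0.2 adjusted over 8 ratios). The ratio of *Ccl11* to *Ccl2* overlapped, at 1.08, 1.64 and 1.95 against 1.26, 1.42 and 1.02 (exact p = 0.4), as did those of *Ccl12* to *Ccl2* (exact p = 0.2), of *Ackr3* to *Cxcl12* (exact p = 0.6) and of *Cxcr4* to *Ackr3* (0.569, 0.604 and 0.378 against 0.460, 0.15 and 0.128, exact p = 0.2).

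Mast cell and eosinophil, B cell, NK cell, dendritic cell and red cell lists had 0 calls by edgeR (at an unadjusted p under 0.05, 1, 2, 0, 2 and 0 genes, and by DESeq2 and limma-voom 0 genes other than 1 dendritic cell gene in each). By edgeR, Schwann cell markers had 4 lower of 8, mural markers 1 higher and 2 lower of 7, and lymphatic endothelial markers 1 higher and 1 lower of 6. At an unadjusted p under 0.05 and by DESeq2, 8 Schwann and 4 mural markers were lower and 2 lymphatic ones higher. By limma-voom, 2 Schwann and 2 mural markers were lower. Of 12 adipocyte markers, 4 were lower by edgeR and limma-voom, 7 at an unadjusted p under 0.05 and 8 by DESeq2, with 0 higher. Of 6 mesothelial markers only 3 were tested, with 2 higher, and *Msln*, *Upk3b* and *Bnc1* were too low to test. Their part in the chemokine results was not tested.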
